A study of Manihot esculenta with 3 samples.

Results

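Runs of neighbouring cassava genes that were listed at 0 in the leaf were described from 1 table of messenger RNA levels. Genes were sorted by identifier within each of the 18 numbered chromosomes, and a gene was a member if it lay in a run of 4 or more successive listed genes whose values were exactly 0 FPKM in all 3 libraries. FPKM counts sequenced fragments relative to the length of the transcript and to the size of the library. The rule found 643 genes in 112 runs, out of 31895 genes with a chromosome number and 33033 listed in all. A further 1138 genes have an S where the chromosome number would stand, and the rule leaves them out.

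The libraries formed 1 group of 3 replicates of cassava (Manihot esculenta), a tropical root crop. All came from leaves of the cultivar TME 7 at a plant age of 7.5 weeks, when leaf 3 or leaf 4 among those fully expanded was sampled, and polyadenylated RNA was sequenced. No contrasting tissue, genotype or treatment was measured, so no comparison between conditions was possible, and nothing in the labels says that the replicates came from separate plants. Summed FPKM ran from 915236 to 952243 per library, the number of fragments behind each value is not listed, and of the genes with a chromosome number 6208 were at 0 in replicate 1, 6083 in replicate 2 and 6671 in replicate 3, the highest number.

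Plant genomes hold stretches of neighbouring genes that yield little or no messenger RNA in a given organ. Among the known settings are tandem arrays of duplicated genes that are used in other organs or under attack, and gene models in condensed, heavily methylated chromatin, where many models derive from transposable elements. Which of these kinds the cassava runs belong to cannot be read from the table, because it pairs no identifier with a name. The RefSeq gene table at hand is of a later release than the identifiers, and 0 of the 33033 identifiers matched it. Each gene is therefore given by its identifier and no function is stated. A value of exactly 0 in such a table can also be a failed estimate, so the genes are called listed at 0, and not unexpressed. In a bulk leaf, a transcript confined to few cells and one that is low in all cells cannot be told apart.

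Of the 31895 genes on numbered chromosomes, 4999 were listed at 0 in every library, or 15.7%, and the members made up 12.9% of these and 2.02% of all genes on numbered chromosomes. With the longest run left out of both counts, the members made up 11.4% of the genes at 0. Since the values in all 3 libraries chose the members, their zeros and their run lengths are a description and carry no test. Most genes at 0 stood apart from others of their kind: 2828 had a neighbour above 0 on each side or the end of the chromosome, 572 runs held 2 genes, and 128 runs held 3. A gene at 0 was followed by another gene at 0 in 27.2% of cases, against 13.5% after a gene that was above 0 in some library. Leaving out the longest run, the first share was 26.02%.

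Short runs made up most of the set. There were 56 runs of 4 genes and 33 of 5, together 79.5% of the 112 runs, and the median length was 4.5 genes. A further 14 runs held 6 or 7 genes. Only 8 runs held 9 to 14 genes, 83 genes in all, and no run had a length between 14 and 81. The 1 run of 81 genes held 12.6% of the members on its own, so several results that rest on it are given with and without it. At the threshold of the rule, the 56 runs of 4 lay just inside and the 128 runs of 3 just outside. The genes next to runs of 4 had a median of 5.04 FPKM, and those next to runs of 3 had a median of 6.33 FPKM, by the mean over libraries.

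**Figure D1:**
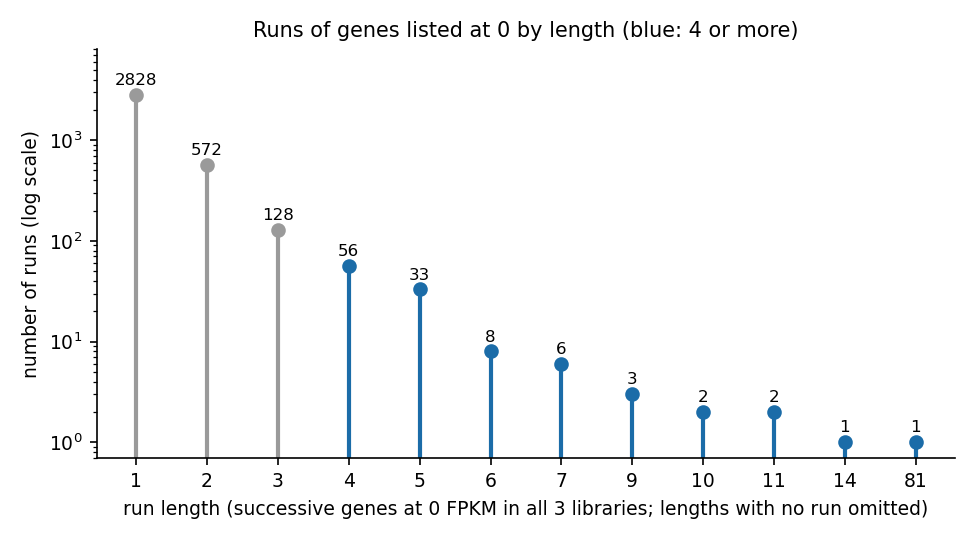
Number of runs (vertical axis, log scale) by run length in genes (horizontal axis), for all runs of genes at 0 FPKM in all 3 libraries on numbered chromosomes, with runs of 4 or more in blue. Counts fall from 2828 single genes to 56 runs of 4 and 33 runs of 5, and the run of 81 genes stands far from the next longest, of 14.

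The numbering of the identifiers bore on whether neighbours in the list are neighbours in the annotation. In all 31877 successive pairs on numbered chromosomes the identifiers differed by exactly 100, the step of the numbering, and 0 pairs had a larger step. No numbered gene was therefore missing inside or beside any run, and no run was joined across an identifier absent from the table. That the order of identifiers is the order along the chromosome is taken from the naming and was not checked against coordinates.

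The longest run lay on chromosome 18 and reached from Manes.18G128100.v6.1 to Manes.18G136100.v6.1, which are genes 1281 to 1361 of the 1465 listed there. None of its 243 values, 81 genes in 3 libraries, was above 0. The genes next to the run differed in level between the 2 sides. Manes.18G136200.v6.1, the next gene after it, stood at 11.1, 8.89 and 8.63 FPKM in replicates 1, 2 and 3, or 9.55 ± 1.4 FPKM (SD, n = 3). Manes.18G128000.v6.1, the gene before it, was listed at 0 in replicate 1 and stood at 0.034 and 0.106 FPKM in the other libraries. In replicate 1 the stretch at 0 also took in that gene and Manes.18G127900.v6.1, for 83 genes, whereas in replicates 2 and 3 it held the same 81 genes.

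On both sides of this run most genes were above 0 in some library. Of the 30 genes before it, 6 were at 0 in every library and 17 had a mean of 1 FPKM or more, with the highest, Manes.18G125200.v6.1, at a mean of 173 FPKM. Of the 30 genes after it, 7 were at 0 and 22 had a mean of 1 FPKM or more, with the highest, Manes.18G137300.v6.1, at a mean of 83.2 FPKM. The genes at 0 before it took in a run of 4, from Manes.18G126200.v6.1 to Manes.18G126500.v6.1. Genes at 0 were thus mixed with genes above 0, at 20% before the longest run and 23.3% after it. Over all genes on numbered chromosomes the share was 15.7%, and inside the longest run every gene is at 0 by the rule. Windows of 81 successive genes that do not touch this run numbered 30294, many of them overlapping, and held a median of 12 genes at 0 and at most 41. Whether the 81 zeros reflect absent transcripts or a part of the chromosome for which no estimate was made was not tested.

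**Figure D2:**
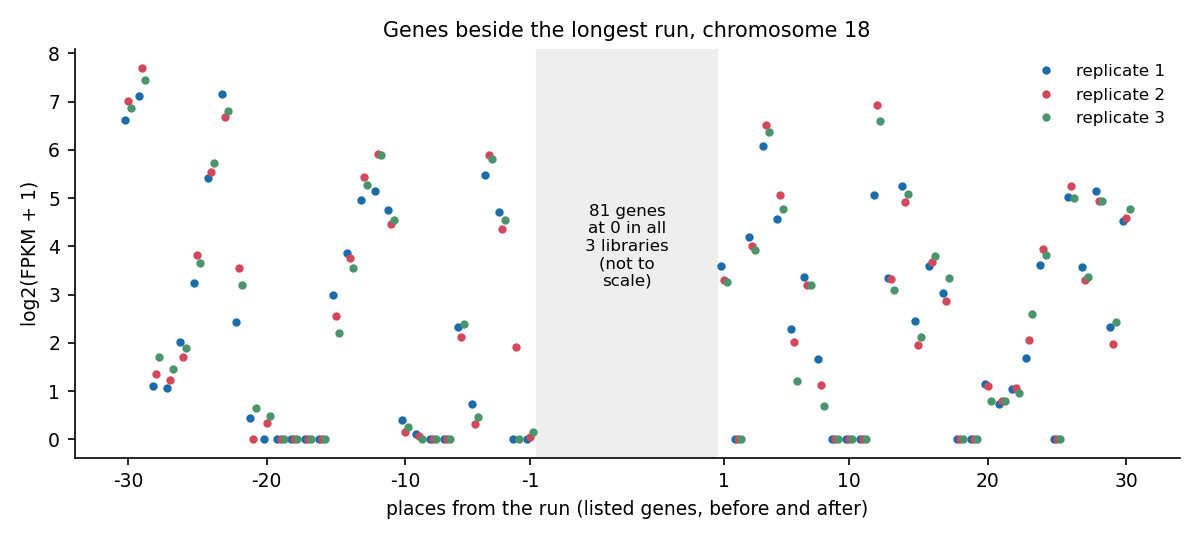
Level of the 30 genes before and the 30 genes after the longest run on chromosome 18, as log2(FPKM + 1), by the number of places from the run, with a point per library and the 81 genes of the run drawn as a grey block that is not to scale. Genes on both sides run from 0 to above 6 on this scale, and the first gene after the run lies above 3 in all 3 libraries.

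The next longest run, of 14 genes, lay on chromosome 7 from Manes.07G078600.v6.1 to Manes.07G079900.v6.1, near the middle of the gene order. Manes.07G078500.v6.1, the gene before it, stood at 30.98, 24.1 and 26.3 FPKM in replicates 1, 2 and 3. Manes.07G080000.v6.1, the gene after it, stood at 0.110 FPKM in replicate 1 and was listed at 0 in the other libraries. The run thus had a clear end on one side, and on the other side it went on to 18 genes in replicates 2 and 3, where Manes.07G080300.v6.1 was the last gene at 0. A run of 4 followed after 6 genes counted from the end of the run of 14.

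A run of 11 on chromosome 12, from Manes.12G105000.v6.1 to Manes.12G106000.v6.1, had low genes on both sides. Manes.12G104900.v6.1, the gene before it, stood at 0.102, 0 and 0.162 FPKM in replicates 1, 2 and 3. Manes.12G106100.v6.1, the gene after it, was above 0 in replicate 2 alone, with 0.128 FPKM. In each library alone the stretch at 0 was longer than the run, with 13, 12 and 13 genes in replicates 1, 2 and 3.

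A run of 10 on chromosome 1, from Manes.01G078000.v6.1 to Manes.01G078900.v6.1, kept its length of 10 in each library alone. Manes.01G079000.v6.1, the gene after it, stood at 85.3, 89.7 and 80.6 FPKM in replicates 1, 2 and 3. Manes.01G077900.v6.1, the gene before it, stood at 0.043, 0.176 and 0.068 FPKM in the same libraries. The 2 sides of this run therefore differed in level by far more than the replicates of either gene did.

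Chromosome 8 held 2 long runs that a lone gene kept apart. The first was of 10 genes, from Manes.08G129900.v6.1 to Manes.08G130800.v6.1, and the other of 11 genes, from Manes.08G131000.v6.1 to Manes.08G132000.v6.1. Manes.08G130900.v6.1, the gene between them, was above 0 in replicate 2 alone, with 0.216 FPKM. In replicates 1 and 3 the stretch at 0 was therefore 22 genes long, the longest after that on chromosome 18. Outside the pair, Manes.08G129800.v6.1 stood at 4.72, 2.65 and 3.16 FPKM in replicates 1, 2 and 3, and Manes.08G132100.v6.1 at 7.71, 10.1 and 7.75 FPKM. Both outer genes were thus above 0 in every library.

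The runs were spread over all 18 chromosomes, though unevenly. Chromosome 10 had the most, with 12 runs, then chromosome 7 with 11 and chromosome 11 with 10, whereas chromosome 16 had 1 run of 4 genes and chromosomes 6, 14 and 15 had 2 runs each. As a share of the genes listed, members were most frequent on chromosome 18, with 7.24%, and least on chromosome 16, with 0.289%. Without the run of 81 genes the share on chromosome 18 was 1.71%, and the highest shares were then 3.97% on chromosome 10 and 3.96% on chromosome 7. Genes at 0 in every library were less uneven, from 13.0% on chromosome 15 to 21.3% on chromosome 7. Of its genes at 0, chromosome 18 had 36.6% in runs, most of them in the run of 81. Chromosome 10 had 20.5% and chromosome 7 had 18.6%, against 2.14% on chromosome 16 and 3.33% on chromosome 6.

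Along the chromosomes, runs occurred in every part of the gene order. When the gene order of each chromosome was cut into 5 equal parts, 23, 26, 24, 24 and 15 of the 112 runs had their midpoints in the first to the last part. The first 10% of the genes held 9 runs and the last 10% held 5. The last of the 5 parts held 23.3% of the members with the run on chromosome 18 and 12.3% without it, so its share turned on that run. The first and last parts together held 39.5% of the members with that run and 30.8% without it, where all listed genes have 39.99% by construction.

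**Figure D3:**
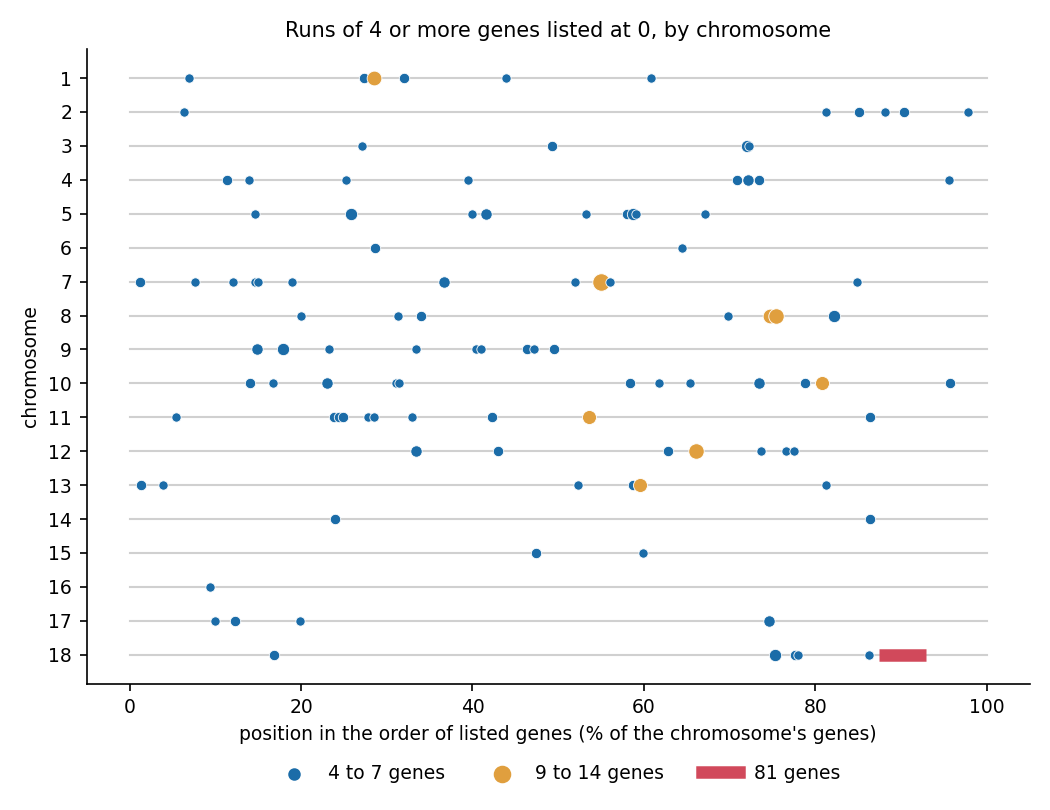
Position of each run of 4 or more genes at 0 (horizontal axis, percent of the listed genes of the chromosome in identifier order) on each of the 18 chromosomes (vertical axis), with dots sized by run length and the run of 81 genes drawn to its extent. Chromosomes 7, 10 and 11 carry 10 to 12 runs each, and chromosome 16 carries 1.

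Some runs lay close together. Of 94 pairs of successive runs on a chromosome, 13 were 10 or fewer genes apart, 4 of them with a lone gene between, and the median distance was 91 genes. The 4 lone genes, chosen after their values were seen, differed in level. Manes.05G122900.v6.1, between runs of 7 and 4 on chromosome 5, stood at 12.3, 12.3 and 9.09 FPKM in replicates 1, 2 and 3. Manes.18G114000.v6.1, between runs of 5 and 4 on chromosome 18, stood at 7.13, 6.71 and 7.39 FPKM. Manes.03G153900.v6.1, between runs of 7 and 4 on chromosome 3, stood at 2.99, 4.16 and 5.16 FPKM. These 3 were above 0 in every library with genes at 0 on each side, and the other was Manes.08G130900.v6.1, described above.

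The densest window outside the longest run lay on chromosome 11, from Manes.11G039300.v6.1 to Manes.11G047300.v6.1, and was chosen after its values were seen. Of its 81 genes 41 were at 0 in every library, or 50.6%, and 5 runs began in it. It opened with 3 runs of 5 genes within 23 successive genes, of which 2 more were at 0. The other 6 included Manes.11G040100.v6.1, at 5.19, 5.87 and 5.10 FPKM in replicates 1, 2 and 3, and Manes.11G040200.v6.1, at 0.966, 0.361 and 0.416 FPKM. The remaining 4 genes were each above 0 in a single library and at most at 0.121 FPKM there. Of its 40 genes that were not at 0 throughout, 21 had a mean of 1 FPKM or more, and Manes.11G044400.v6.1 had a mean of 175 FPKM. The run on chromosome 18 holds no such gene by the rule, so the 2 stretches are not contrasted in this.

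Genes next to the runs were lower than genes in general. The 224 run ends had 220 distinct neighbours, since 4 genes stood between 2 runs. Their median was 4.05, 4.29 and 4.22 FPKM in replicates 1, 2 and 3, or 4.18 ± 0.12 FPKM (SD, n = 3), against 7.28 ± 0.10 FPKM (SD, n = 3) for all 26896 genes on numbered chromosomes that were not at 0 throughout. On the log2(FPKM + 1) scale the difference of medians was -0.68 ± 0.02 (SD, n = 3), and it had the same sign in all 3 libraries. A neighbour of a run cannot itself be at 0 throughout, which is why genes at 0 were left out of both sides. The rule used the values that set where a run ends, so this difference carries no test.

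By the mean over libraries, 153 of the 220 neighbours reached 1 FPKM, or 69.5%, where 78.6% of all genes not at 0 throughout did so. At 10 FPKM or more there were 68 of them, or 30.9%, against 43.1%. At the low end, 30 neighbours had a mean under 0.1 FPKM, or 13.6%, against 5.596% of all genes not at 0 throughout. The neighbours thus held fewer genes at high levels and more at very low levels than the whole set. In 47 of them, or 21.4%, the value was 0 in 1 or 2 libraries, against 9.74% of all such genes, and 31 of the 47 were above 0 in a single library, at a median of 0.216 FPKM there. Such a neighbour separates a run from a longer one by the value of 1 library.

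Across the 112 runs, length and the mean level of the 2 neighbours had almost no rank relation, with Spearman's rho of -0.05, a description over runs from the same libraries. By classes of length that also take in shorter runs, the median of the mean over libraries was 6.86 FPKM next to single genes at 0, 5.43 FPKM next to runs of 2, 6.33 FPKM next to runs of 3, 5.04 FPKM next to runs of 4, 4.72 FPKM next to runs of 5 and 3.51 FPKM next to runs of 6 or more, the last over 45 genes. The order was not even, since runs of 3 had higher neighbours than runs of 2, and the lowest class was the smallest. The share of neighbours listed at 0 in some library was 11.2%, 12.7%, 14.5%, 15.2%, 22.7% and 33.3% for the same 6 classes. Each class thus had a higher share than the shorter one before it, over 45 to 5347 genes per class, and these shares rest on the same zeros that define the runs.

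The 2 sides of a run were compared by level. In 56 of the 112 runs both neighbours had a mean of 1 FPKM or more, in 44 only the neighbour on a single side did, and in 12 neither did. Both reached 10 FPKM in 14 runs. No like split was counted for pairs of genes elsewhere, so these counts are not read as a trait of runs. Across the 112 runs, Spearman's rho between the levels before and after was 0.24, a description over runs that share libraries and, in 4 cases, a neighbour. Neighbours before runs had a median of 3.93 ± 0.31 FPKM and those after had 4.70 ± 0.24 FPKM (SD, n = 3). The share at 1 FPKM or more went the other way, 72.3% before and 67.0% after.

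A few neighbours were abundant. A mean of 100 FPKM or more was found for 7 of them, or 3.18%, against 4.73% of all genes not at 0 throughout. By run length the share was 0.893% next to runs of 4, 6.06% next to runs of 5 and 4.44% next to runs of 6 or more. Over so few genes, the share is not read as a trait of neighbours. The highest neighbour by its mean was Manes.13G092200.v6.1, which precedes a run of 9 on chromosome 13 that begins at Manes.13G092300.v6.1. It was listed at 0 in replicates 1 and 2 and at 16956.1 FPKM in replicate 3, a value that 1 other gene of that library shared exactly. Its mean therefore rests on 1 library, and without replicate 3 the gene would have been a member of a run of 10. Manes.13G093200.v6.1, on the other side of the same run, stood at 3.79, 2.61 and 2.76 FPKM in replicates 1, 2 and 3.

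The next highest neighbours were above 0 in every library. Manes.11G089300.v6.1 followed a run of 9 on chromosome 11 and stood at 111, 223 and 305 FPKM in replicates 1, 2 and 3. Manes.12G124000.v6.1 followed a run on chromosome 12 that begins at Manes.12G123600.v6.1 and stood at 152, 180 and 190 FPKM. Replicate 1 was the lowest library for both. On the other side of the chromosome 11 run, Manes.11G088300.v6.1 was above 0 in replicate 2 alone, at 0.627 FPKM. A run of 5 on chromosome 14, from Manes.14G041600.v6.1 to Manes.14G042000.v6.1, lay between 2 genes that were well above 0: Manes.14G041500.v6.1 stood at 17.3, 18.2 and 15.5 FPKM and Manes.14G042100.v6.1 at 144, 171 and 169 FPKM in replicates 1, 2 and 3.

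Beyond the next gene, zeros were more frequent than in general at each of the places from 2 to 10. From 2 to 10 places from a run, 18.4% to 26.9% of genes at each place were at 0 in every library, with the highest share at 2 places, against 15.7% of all genes on numbered chromosomes. From 11 to 20 places the shares were 15.3% to 18.6%, with a mean of 16.5%, and from 21 to 30 places 13.6% to 22.3%, with a mean of 17.7%, so the share did not fall steadily with distance. Around single genes at 0, the mean share from 2 to 10 places was 15.6%, where around runs it was 22.2%. The zeros around runs take in members of other runs, since 13 pairs of runs lay 10 or fewer genes apart. They come from the values that chose the runs, so this difference carries no test. Among genes not at 0 throughout, the 1481 that lay 2 to 10 places from a run and next to none had a median of 7.04 ± 0.16 FPKM, against 7.34 ± 0.09 FPKM for the 25195 farther away (SD, n = 3). Their median was thus nearer to that of genes in general than the median of the immediate neighbours was.

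**Figure D4:**
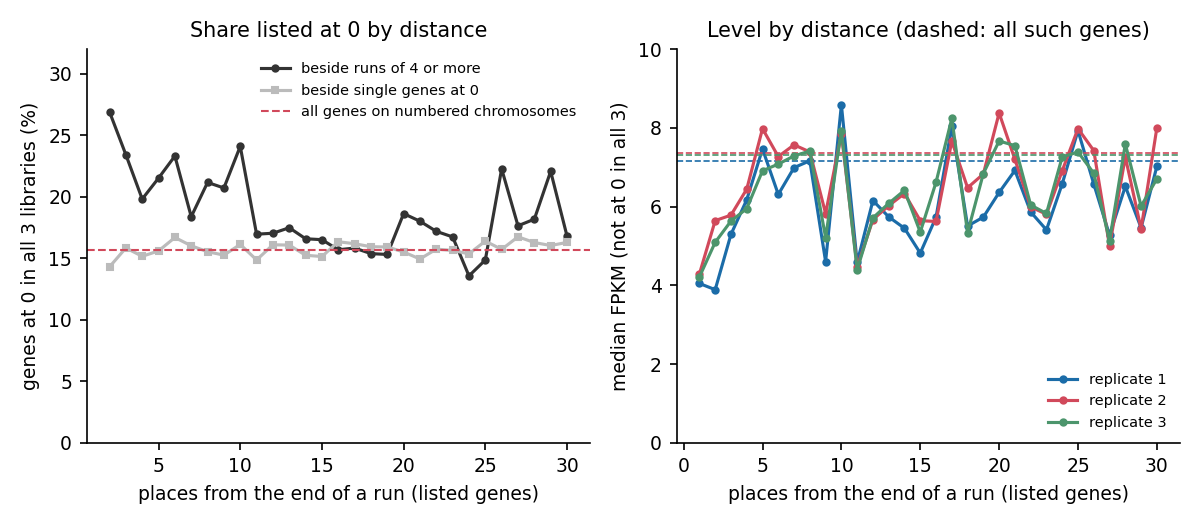
Left, share of genes at 0 in all 3 libraries (percent) from 2 to 30 places from the end of a run of 4 or more and of single genes at 0, with the share of all genes, 15.7%, dashed. Right, median FPKM per library of the genes not at 0 throughout from 1 to 30 places from a run, with the median of all such genes dashed: the next genes lie at 4.05 to 4.29 FPKM and the dashed lines at 7.17 to 7.37 FPKM.

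The zeros of the runs could be read in values that the choice had not used by choosing runs on 2 libraries and reading the third. Runs of 4 or more chosen on replicates 2 and 3 held 714 genes, of which 96.4% were at 0 in replicate 1. Those chosen on replicates 1 and 3 held 720 genes, of which 95.7% were at 0 in replicate 2, and those chosen on replicates 1 and 2 held 670 genes, of which 98.2% were at 0 in replicate 3. Most of what was at 0 in a pair of libraries was thus at 0 in the other library too. The mean was 96.8% ± 1.3 (SD, n = 3), and without the longest run 96.3% ± 1.5 (SD, n = 3). The 3 readings share libraries and are not independent.

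Genes at 0 in the same pair of libraries but outside such runs were at 0 in the held-out library in 91.1% ± 2.7 of cases (SD, n = 3). The share was lower than in runs for each held-out library, with 90.0%, 89.1% and 94.2% for replicates 1, 2 and 3. By run length it was 90.1% ± 2.9 for single genes, 92.5% ± 2.2 for runs of 2 and 93.5% ± 2.8 for runs of 3 (SD, n = 3). Replicate 3, which lists the most zeros, gave the highest share in every class. Within each held-out library the share was higher at each step of run length, whereas the ranges of mean and SD of neighbouring classes overlap. An exact permutation test over 3 libraries cannot give a two-sided p below 0.25, so none was run. The run on chromosome 18 had the same 81 genes when chosen on each pair of libraries, and all 81 were at 0 in the library held out. Its zeros in all 3 libraries were already known from the rule, so this adds no separate reading.

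**Figure D5:**
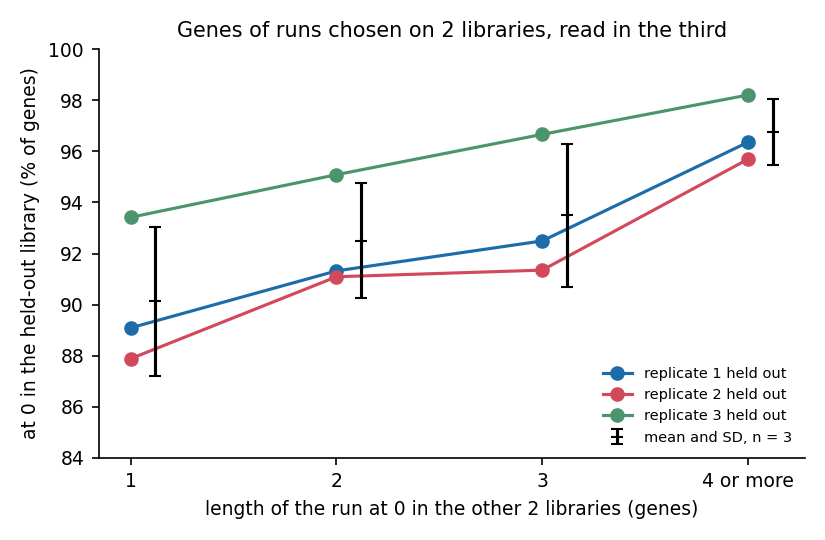
Share of genes at 0 in a held-out library (percent, axis from 84) by the length of the run at 0 in the other 2 libraries, with a line per held-out library and the mean and SD of the 3. In each library the share is lowest for single genes, at 87.9% to 93.4%, and highest for runs of 4 or more, at 95.7% to 98.2%.

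Genes of such runs that were above 0 in the held-out library numbered 26, 31 and 12 for replicates 1, 2 and 3, with medians of 0.141, 0.116 and 0.214 FPKM. Outside such runs the medians of genes above 0 were of like size, with 0.168, 0.170 and 0.227 FPKM over 478, 528 and 269 genes. Low held-out values were thus found both in runs and outside them. Outside runs, 89, 84 and 62 genes reached 1 FPKM in replicates 1, 2 and 3, or 1.86%, 1.74% and 1.34% of all genes read there. In runs 3, 5 and 2 genes did, or 0.42%, 0.69% and 0.30% of all genes read in runs. Beside Manes.13G092200.v6.1, the highest were Manes.03G058300.v6.1 at 197 FPKM and Manes.10G086200.v6.1 at 126 FPKM in replicate 1, and Manes.12G099900.v6.1 at 101 FPKM in replicate 2. Each of these 4 genes was listed at 0 in the 2 other libraries, because the runs were chosen on zeros there. The value of Manes.12G099900.v6.1, like that of Manes.13G092200.v6.1, was shared exactly by 1 other gene of the same library. For Manes.03G058300.v6.1 and Manes.10G086200.v6.1, which are not next to a run of the rule, shared values are not given here.

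Single libraries gave longer or more runs than all 3 together, since fewer zeros are required. Taken alone, replicate 1 had 145 runs of 4 or more with 854 genes, replicate 2 had 142 with 810 genes and replicate 3 had 161 with 941 genes. Of the 112 runs, 27 went on further in replicate 1, 15 in replicate 2 and 31 in replicate 3. The genes so added numbered 80, 34 and 93. In any given library most runs thus kept their ends, and replicate 2, which has the fewest zeros, moved them least.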

How the data were processed

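Per the file headers, the deposited table holds FPKM values, 1 column for each library. The submitters' processing notes name TopHat2 2.0.11 and Cufflinks 2.2.1, tools for spliced alignment and for estimating abundance. Not given in the sources used here are the genome build, the settings, any scaling between libraries, and the treatment of fragments that fit several places, so values of genes with near-identical copies are uncertain. FPKM values are not counts, so depth is unknown and no counting intervals are given.

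Columns were matched to samples by replicate number. Identifiers were sorted within chromosomes, and runs, neighbours, spacing and held-out zeros were counted. Means and SDs are over the 3 libraries. Differences of level used log2(FPKM + 1), with a pseudocount of 1. Named genes belong to the 5 longest runs, the 3 highest neighbours, the 3 runs with the highest mean over both neighbours, and the closest pair of long runs. Others are introduced as chosen after their values were seen, or are given as the highest of a list or window. The members and rules were chosen with earlier results of these data known. The run finder was tested on simulated data with planted runs. Alternatives covered run length, threshold, libraries required, bridging, S genes, pseudocount, level filter, scaling and leaving out replicates. Leaving out the longest run was added after seeing the data. Python 3.11.15, numpy 2.4.6, pandas 2.3.3 and matplotlib 3.10.9 were used.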

Additional observations from a re-analysis of the deposited data

How the results depend on the processing

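No paired analysis was possible because the study has 1 group. The 643 members and 112 runs became 1027 and 240 with runs of 3 or more, and 419 and 56 with runs of 5 or more, by construction. They stayed within 1.5 times the main values at 0.1 FPKM or less in every library (781 and 137), with 0 in at least 2 libraries (878 and 150), when bridging a gene above 0 in a single library (692 and 118) and with S genes (761 and 130). Leaving out each replicate gave 670 to 720 members and 116 to 124 runs. Breaking runs at gaps in the numbering changed nothing, as there are none. The median level of neighbouring genes, 4.57 FPKM by the mean over libraries, was 5.49 FPKM with runs of 3 or more, 4.10 FPKM with runs of 5 or more and 5.52 FPKM with 0 in at least 2 libraries. With 0 in at least 2 libraries, a gene above 0 in a single library cannot be a neighbour, by construction. The cause of these differences was otherwise not tested. The median level was 4.91 to 4.93 FPKM without each replicate in turn. Its log2 difference from all genes not at 0 throughout, -0.68, was -0.79 with a pseudocount of 0.1, -0.49 among genes of mean 1 FPKM or more, and -0.67 to -0.68 without each replicate, and kept its sign in each. The share of members in the first and last of 5 equal parts of the gene order was 30.8% without the longest run, against 39.5%. The held-out share at 0 ran from 95.5% to 98.0% in runs and from 89.6% to 93.8% outside them over their alternatives. The number of fragments behind the values is unknown, so a gene at 0 cannot be told from one below detection.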
